A study of Caenorhabditis elegans with 2 samples.

Results

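The genes described here encode the CDC-48 segregase and its main cofactor in Caenorhabditis elegans: cdc-48.1, cdc-48.2, ufd-1, npl-4.1 and npl-4.2, which are 5 of 19973 protein-coding genes on the 6 nuclear chromosomes. They were chosen by name, with the signal of the peak at cdc-48.1 and the peak at cdc-48.2 in these same lists already known, so their values are given as a description and no test was made on them. The data are TF ChIP-seq, in which a tagged protein is immunoprecipitated and the DNA bound to it is sequenced. The protein was eGFP-nhr-77, a nuclear hormone receptor fused to a fluorescent protein, in whole L1 larvae (the first stage after hatching) of pooled sexes. The strain was OP353, with the unc-119(tm4063) mutation on chromosome III and the transgene insertion wgIs353, and the age in hours is not given. The experiment had 1 group, in 2 biological replicates, and nothing to compare it with. Whole animals were used, so a peak can come from any tissue, and the labels do not give the cells in which the tagged protein was made.

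CDC-48, called p97 or VCP in mammals, is a hexameric AAA ATPase that pulls ubiquitinated proteins out of complexes, chromatin and the membrane of the endoplasmic reticulum, usually on their way to the proteasome. In C. elegans it is encoded by the paralogues cdc-48.1 and cdc-48.2, whose loss can be tolerated singly but not together. UFD-1 and NPL-4 form the heterodimer that brings ubiquitin chains to it, and NPL-4 is encoded by a pair of neighbouring genes. Removal of replication proteins from chromatin in the worm embryo is among the known tasks of CDC-48 with UFD-1 and NPL-4.

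Each gene was searched from 2000 bp upstream of its annotated 5' end to its end, and a peak was counted there when its summit lay inside. The lists were the reproducible set of 2285 peaks, which the authors selected by an IDR threshold (a measure of agreement between replicates), the pooled list of 13500 peaks, and the relaxed lists of 21272 peaks for replicate 1 and 24201 for replicate 2. Signal is the authors' own value for a peak, and ranks run from 1 for the highest signal of a list. No read counts come with the lists, so the depth behind each value is unknown. All coordinates are on ce11 (WBcel235), and negative distances lie upstream of the 5' end.

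The sequences under the summits of both paralogues are shown first. The contrast drawn between these genes below is one of peak rank, distance and replicate agreement. Each is 300 bases of the gene's own strand, 5' to 3', around the summit of the reproducible peak, at chrII:10563418-10563717 (minus strand) for cdc-48.1 and at chrII:8137428-8137727 (plus strand) for cdc-48.2. Capitals mark the matches to 6 short motifs described further on.
cdc-48.1: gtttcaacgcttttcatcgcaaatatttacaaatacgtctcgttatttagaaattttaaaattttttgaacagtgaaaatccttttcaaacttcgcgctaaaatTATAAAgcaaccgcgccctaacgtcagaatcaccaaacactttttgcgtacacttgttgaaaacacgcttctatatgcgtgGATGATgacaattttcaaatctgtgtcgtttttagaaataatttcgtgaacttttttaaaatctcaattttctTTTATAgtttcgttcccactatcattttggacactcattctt
cdc-48.2: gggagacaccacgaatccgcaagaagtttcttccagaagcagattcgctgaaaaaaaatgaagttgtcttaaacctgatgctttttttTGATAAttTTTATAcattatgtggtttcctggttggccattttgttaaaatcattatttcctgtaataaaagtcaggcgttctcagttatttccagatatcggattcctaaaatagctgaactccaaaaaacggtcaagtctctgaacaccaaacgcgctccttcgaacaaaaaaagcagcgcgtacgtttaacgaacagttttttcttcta

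The segregase genes carried peaks and the genes of the ubiquitin adaptor did not reach the reproducible set. A reproducible summit lay in the windows of cdc-48.1 and cdc-48.2, 2 of 5 genes (40.0%), against 2598 of 19973 protein-coding genes (13.0%, exact Clopper-Pearson 95% interval 12.5 to 13.5%). The interval covers counting error only. The windows of cdc-48.1 (5372 bp) and cdc-48.2 (4735 bp) were longer than the median of 4027 bp over all protein-coding genes. Those of ufd-1 (3483 bp) and npl-4.1 (3934 bp) were shorter, and that of npl-4.2 (4071 bp) was close to it. The part of window length in this count was not tested. In the pooled list ufd-1 joined them, giving 3 of 5 genes, against 45.9% of all protein-coding genes. The same 3 genes had a summit in the replicate 1 list, where the background was 60.2%, and in the replicate 2 list, where it was 65.8%. The members' share was close to or below the background in both relaxed replicate lists, so the presence of a weak peak does not set them apart. In none of the 4 lists did npl-4.1 or npl-4.2 have a summit, 2 of 5 members against 22.0% of all protein-coding genes.

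**Figure D1:**
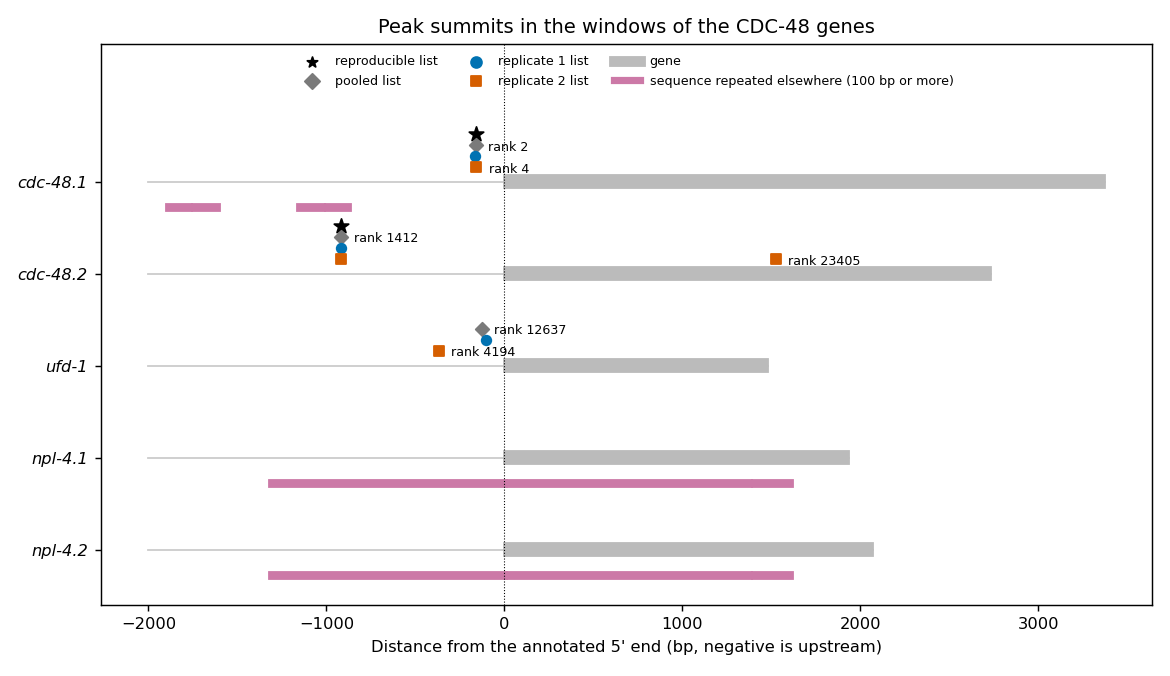
Summits in the window of each gene, plotted by distance from the annotated 5' end in bp (x axis) with 1 row per gene; stars, diamonds, circles and squares are the reproducible, pooled, replicate 1 and replicate 2 lists, grey bars the genes and pink bars stretches of 100 bp or more that occur elsewhere in the genome. All 4 marks coincide at cdc-48.1 and upstream of cdc-48.2. At ufd-1 the replicate 2 mark stands apart from the replicate 1 and pooled marks. The windows of npl-4.1 and npl-4.2 hold a long repeated stretch and no summit.

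The gene cdc-48.1 (WBGene00007352, chrII:10560036-10563407, minus strand) had one of the strongest peaks of the whole experiment. Its signal was 416 in replicate 1 (rank 2) and 297 in replicate 2 (rank 4). In the pooled list the signal was 715, at rank 2, and the same peak stood at rank 2 of the reproducible set. The strongest peaks of 13 protein-coding genes ranked 10 or better in all 4 lists, and cdc-48.1 was one of them. The others included rpl-3, a ribosomal protein gene at rank 1 in each list, and C06A1.7, counted through the cdc-48.1 peak itself. Neighbouring genes can share a peak in this way, so the 13 genes stand for fewer than 13 sites. No other peak of any list lay in the cdc-48.1 window.

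The cdc-48.1 peak was narrow and lay close to the start of the gene. Its summit was at -165 bp in replicate 1, at -158 bp in replicate 2 and at -161 bp in the pooled list, all in intergenic sequence. The reproducible peak spanned chrII:10563435-10563719, a width of 285 bp, and its replicate peaks were 264 and 244 bp wide. Most peaks had a fixed width in their list (380 bp in the reproducible and pooled lists, 370 bp for replicate 1 and 376 bp for replicate 2). Narrower peaks made up 122 of the 2285 reproducible peaks (5.34%), and all of the 25 strongest reproducible peaks were among them. A narrow peak was thus shared by the strongest sites rather than by cdc-48.1 alone.

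No other annotated gene started nearer to this summit than cdc-48.1, with piRNA genes left out of the search. The next protein-coding gene upstream, C06A1.6, lies on the same strand with its end 704 bp from the cdc-48.1 start. C06A1.7, which starts on the opposite strand beyond C06A1.6, also had the summit in its window, at -1323 bp. The introns of cdc-48.1 hold the snoRNA genes C06A1.9, with the summit at -504 bp from its start, and C06A1.8, with the summit at -2634 bp. The summit was thus upstream of both snoRNA genes as well.

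The paralogue cdc-48.2 (WBGene00008053, chrII:8138496-8141230, plus strand) had a far weaker peak in the same lists. Its signal was 47.6 in replicate 1 (rank 1362) and 27.1 in replicate 2 (rank 2439). In the pooled list it was 81.5, at rank 1412, which was also its rank in the reproducible set. It therefore fell in the lower part of the reproducible set, whose median signal was 92.4. In replicate 2 the peak lay below the 2285 strongest peaks of that list, as did 363 of the 2279 reproducible peaks with a peak in both replicates (15.9%). All these peaks had the usual width of their list.

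The cdc-48.2 peak was also farther from the gene, and its place between genes was ambiguous. Its summit was at -920 bp in replicate 1 and at -918 bp in replicate 2 and the pooled list, between cdc-48.2 and ctns-1 (WBGene00008052), which encodes a homologue of the lysosomal cystine transporter cystinosin. The pair is divergently oriented, with 1577 bp between the genes, and the summit lay nearer to ctns-1, at -660 bp from its 5' end. These data do not tell which of the genes the peak serves. Among 2155 protein-coding genes with a reproducible summit within 2000 bp upstream, the median distance was 357 bp for the strongest such peak. A summit farther from the start than that of cdc-48.1 was found for 1697 of these genes (78.7%), and one farther than that of cdc-48.2 for 617 (28.6%). For 1302 of the 2155 genes (60.4%) their own 5' end was the coding start nearest to the summit, as at cdc-48.1 but not at cdc-48.2.

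A further peak of cdc-48.2 appeared in replicate 2 alone. It lay in an intron at 1524 bp from the start, with a signal of 10.98 and rank 23405 of 24201. Replicate 1 and the pooled list had no summit there.

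**Figure D2:**
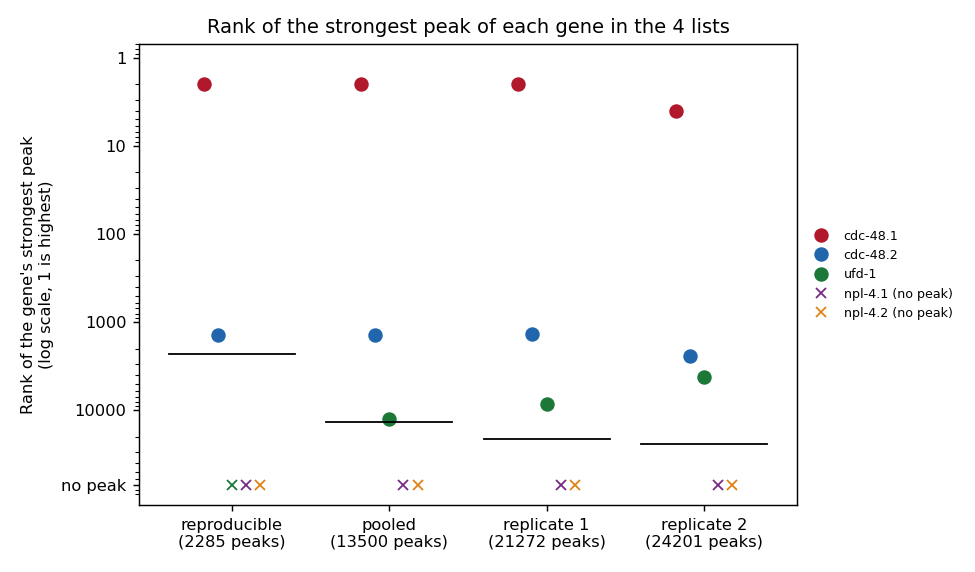
Rank of the strongest peak in the window of each gene (y axis, log scale, 1 at the top) in the 4 lists (x axis), with coloured dots for the genes, crosses where a gene had no peak and a black line at the last rank of each list. The cdc-48.1 dots stay at ranks 2 to 4, those of cdc-48.2 between 1362 and 2439, and those of ufd-1 between 4194 and 12637.

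The replicates placed the summits of both segregase genes almost at the same base. The replicate summits were 7 bp apart at cdc-48.1 and 2 bp apart at cdc-48.2. Over the 2279 reproducible peaks with a peak in both replicates the median gap was 27 bp, and 2048 of them (89.9%) had a gap of at most 100 bp. A larger gap than at cdc-48.1 was seen at 1764 peaks (77.4%), and a larger gap than at cdc-48.2 at 2069 (90.8%). The ranks in the replicates differed by a factor of 2 at cdc-48.1 and 1.79 at cdc-48.2, and 571 (25.1%) and 772 (33.9%) of these peaks had a larger factor. As a difference, replicate 1 minus replicate 2, the ranks gave -2 at cdc-48.1 and -1077 at cdc-48.2. Which of these genes had the closer ranks thus depends on the measure. With summits of both replicates within 100 bp taken as the same place, cdc-48.1 and cdc-48.2 had such a pair, 2 of 5 genes against 28.1% of all protein-coding genes.

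**Figure D3:**
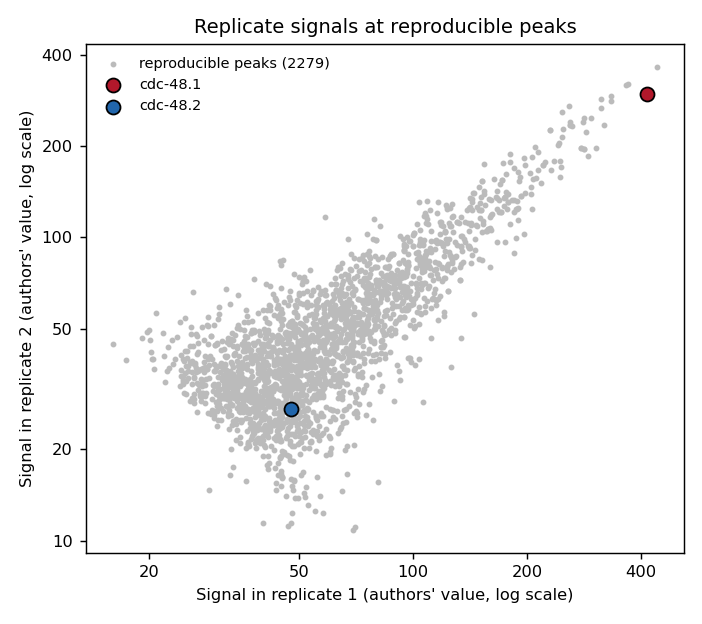
Signal of the overlapping peaks of replicate 1 (x axis) and replicate 2 (y axis), the authors' values on log scales, for 2279 reproducible peaks (grey points), with cdc-48.1 in red and cdc-48.2 in blue. The cdc-48.1 peak, at 416 and 297, sits at the upper end of the cloud, and the cdc-48.2 peak, at 47.6 and 27.1, inside its dense lower part.

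At ufd-1, which encodes the adaptor subunit that binds ubiquitin with NPL-4, the lists held only weak peaks, and the replicate summits did not coincide. The gene (WBGene00006733, chrIV:12329408-12330890, minus strand) had a summit at -103 bp in replicate 1 (signal 16.1, rank 8419) and one at -369 bp in replicate 2 (signal 21.0, rank 4194). In the pooled list the summit was at -127 bp with a signal of 24.1, rank 12637 of 13500. The replicate summits were 266 bp apart, and their intervals overlapped by 107 bp. By signal the pooled peak stood near the end of its list, which includes background, and no reproducible peak lay in the window. All 3 summits fell in the annotated 3' UTR of F19B6.1 (WBGene00008948), a gene on the same strand that ends 85 bp before ufd-1 starts, so the region upstream of ufd-1 is also the end of another gene.

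The genes npl-4.1 (WBGene00019120, chrII:5631351-5633284, plus strand) and npl-4.2 (WBGene00019121, chrII:5622889-5624959, plus strand) had no summit in any list, but they are near-identical copies. Their longest coding sequences, of 1587 bp each, differed at 8 bases (99.5% identity). The 1325 bp before their starts held no difference at all. By contrast, the coding sequences of cdc-48.1 (2427 bp) and cdc-48.2 (2430 bp) were 75.5% identical, and the longest run shared by their upstream 2000 bp was 11 bp. The 200 bases before the start show what a read from either npl-4 gene would look like, since this sequence stands both at chrII:5631151-5631350 and at chrII:5622689-5622888 on the plus strand.
npl-4.1 and npl-4.2: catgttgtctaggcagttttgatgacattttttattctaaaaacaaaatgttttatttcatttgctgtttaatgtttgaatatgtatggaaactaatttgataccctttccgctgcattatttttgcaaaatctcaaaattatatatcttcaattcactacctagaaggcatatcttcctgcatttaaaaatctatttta

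A read that lies wholly in such sequence matches both copies equally well. Of the 32-base stretches in the window of npl-4.1, 949 of 3903 (24.3%) occurred at 1 place in the genome, and of those in the window of npl-4.2, 1010 of 4040. The shares were 90.2% for cdc-48.1, 99.9% for cdc-48.2 and 99.8% for ufd-1, and every such stretch inside the pooled peaks of these 3 genes was unique. Of all protein-coding genes, 268 (1.34%) had a lower share than npl-4.1. Among the 310 genes with a share under 30%, 294 (94.8%) had no summit in any of the 4 lists, as did 2796 of the 16149 genes (17.3%) with a share of 90% or more. A reproducible summit lay at 3 of the 310 genes (0.968%) and at 2313 of the 16149 (14.3%). Neither the read length nor the treatment of reads with several matches is stated in the notes or labels, and 32 bases were chosen for this count. At npl-4.1 and npl-4.2, a lack of binding and a lack of uniquely placed reads cannot be told apart.

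**Figure D4:**
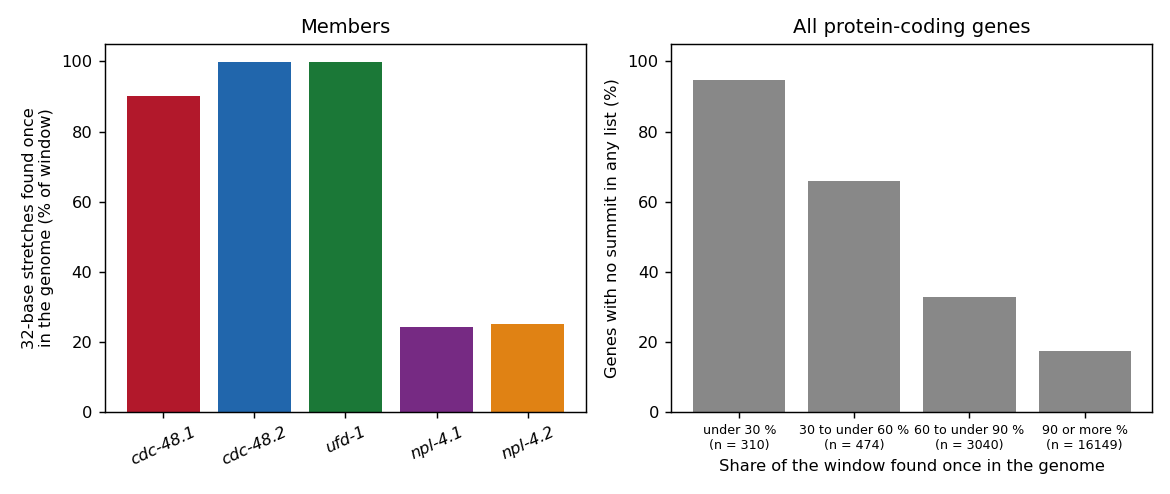
Left, share of the 32-base stretches in the window of each CDC-48 gene that occur at 1 place in the genome (bars, percent). Right, share of all protein-coding genes with no summit in any of the 4 lists (bars, percent), by the share of unique sequence in their window; the bars fall along this order, with 94.8% at under 30% unique and 17.3% at 90% or more, and npl-4.1 and npl-4.2 belong to the first class.

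The summits of the paralogues had no listed motif in common except TATAAA. The motifs searched, on both strands, were AGGTCA, the half-site of many nuclear receptors, and TGATAA, which many zinc-finger factors of intestine and hypodermis recognise. The others were TATAAA (core of the promoter element named after it), GAGAGA (a repeat known from fly promoters), CACGTG (a form of the E-box) and ATCATC (part of the sequence bound by SKN-1). The 300 bases around the cdc-48.1 summit held TATAAA at 2 places and ATCATC at 1, and those around the cdc-48.2 summit held TGATAA and TATAAA at 1 place each, with no overlap between matches. Over the 2285 reproducible peaks, windows of this length held TATAAA in 22.8% of cases, ATCATC in 13.0% and TGATAA in 17.3%. All of these were more frequent in promoters, at 37.9% for TATAAA, 16.8% for ATCATC and 30.2% for TGATAA. Neither summit window held AGGTCA, which 8.27% of the reproducible windows and 8.27% of promoters held. Nor did they hold GAGAGA, which was in 51.9% of reproducible windows and 21.8% of promoters, or CACGTG (8.93% and 5.82%). Promoters here are 250 bases before to 50 after the start of each of 19973 protein-coding genes.

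The summit window of cdc-48.1 was poor in G and C for a peak of this set, and that of cdc-48.2 was just above the lower quartile. GC content was 32% at cdc-48.1 and 37.3% at cdc-48.2, against a median of 41.7% (quartiles 37.0 and 46.0%) in the 2285 reproducible windows. The promoters of the 5 genes were 34.0% (cdc-48.1), 36.0% (cdc-48.2), 32% (ufd-1), 33.0% (npl-4.1) and 32.7% (npl-4.2) GC, close to the median of 34.3% over all promoters. AGGTCA was in none of these 5 promoters, and GAGAGA was in that of cdc-48.2 only. A match or its absence describes these letters in these windows and nothing about a factor.

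Other genes of the pathway were counted by the same windows, in lists drawn up by name. Of 11 other cofactors and relatives of CDC-48, 5 had a reproducible summit (45.5%, against the 13.0% of all protein-coding genes). They were ufd-2, which lengthens ubiquitin chains (signal 118, -308 bp, rank 752), ubxn-2 (93.1, -168 bp), ufd-3, the homologue of the p97 cofactor PLAA (90.4, -80 bp), ubxn-3, a UBX-domain adaptor with a role in unloading replication proteins (71.7, -895 bp), and ubxn-1 (71.0, -256 bp). The ubxn-1 summit was nearer to the start of tipn-1. The third CDC-48 homologue, cdc-48.3, had only weak peaks, at rank 13262 of the pooled list. The replicate peaks of these 5 genes ranked between 644 and 2687, so none approached cdc-48.1. Windows of the 11 genes had a median of 4834 bp, against 4027 bp over all protein-coding genes.

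The pathway that brings CDC-48 substrates out of the endoplasmic reticulum had peaks in the pooled and replicate lists only. None of 8 genes of ER-associated degradation had a reproducible summit, against 13.0% of all protein-coding genes, and 2 of 8 had one in the pooled list, against 45.9% of all protein-coding genes. These were sel-1, part of the HRD1 ubiquitin ligase complex, and the membrane ubiquitin ligase marc-6, at ranks 4674 and 5884. In the replicate lists the counts lay on opposite sides of the background, with 6 of 8 genes in replicate 1, against 60.2% of all protein-coding genes, and 3 of 8 in replicate 2, against 65.8%. The median window of this list was 4786 bp, against 4027 bp over all protein-coding genes.

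Genes of ubiquitin itself and of other AAA ATPases were counted in the same way. Of 5 genes for ubiquitin and its use, 4 had a reproducible summit (80.0%, against 13.0% of all protein-coding genes): ubql-1, a ubiquilin (signal 286, -536 bp, rank 96), ubq-2, a ubiquitin fused to a ribosomal protein (149, -497 bp), rad-23, a shuttle to the proteasome (103, -233 bp), and the polyubiquitin gene ubq-1 (59.98, at 378 bp inside the gene). The summits of ubq-2 and rad-23 were nearer to the starts of frg-1 and rpn-12. The ubq-1 peak was at rank 1312 in replicate 1 and at rank 9443 in replicate 2. The median window of this list was 5588 bp, against 4027 bp over all protein-coding genes.

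Of 12 AAA ATPase genes outside the proteasome, 7 had a reproducible summit (58.3%, against 13.0% of all protein-coding genes). They were bcs-1, a mitochondrial assembly factor (signal 184), atad-3 of the mitochondrial inner membrane (163), the SNARE-disassembling nsf-1 (159), the microtubule-severing spas-1 (145), vps-4 of the ESCRT pathway (128), prx-1 of peroxisome assembly (98.3) and the mitochondrial protease spg-7 (70.5). For bcs-1, vps-4 and prx-1 another gene (rpl-5, gsa-1 and mgrn-1) had the nearest start. The best peak in the prx-1 window had rank 684 in replicate 1 but rank 23969 in replicate 2. Windows of this list had a median of 7255 bp, longer than the 4027 bp over all protein-coding genes, and the part of window length in the counts of these lists was not tested.

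**Figure D5:**
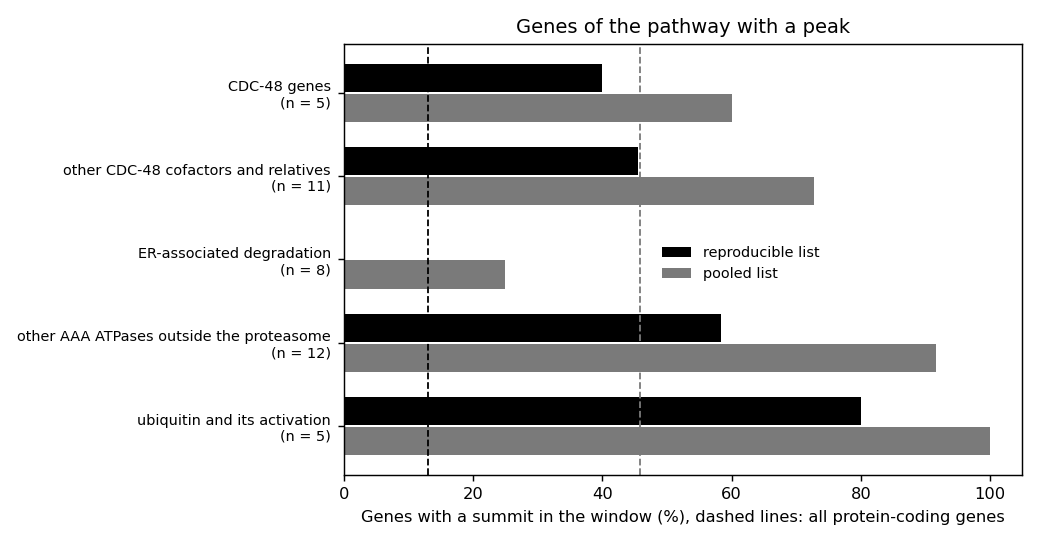
Share of the genes of each list with a summit in the window (x axis, percent), black bars for the reproducible list and grey bars for the pooled list, with dashed lines at 13.0% and 45.9% for all protein-coding genes. The black bars of the CDC-48 genes (40.0%), their other cofactors (45.5%), the other AAA ATPases (58.3%) and the ubiquitin genes (80.0%) pass the black line. The list of ER-associated degradation has no black bar.

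The genes whose ranks over the 4 lists were most like those of the paralogues were compared among 2593 protein-coding genes with a peak in every list, by the summed difference of rank percentiles. For cdc-48.1 these were C06A1.7, which has the same peak, and then rnf-113 and tasp-1. The latter share a peak at ranks 3, 3, 3 and 2 of the reproducible, pooled, replicate 1 and replicate 2 lists (summed difference 0.0641 percentage points). K01G5.10 had the same ranks in all 4 lists and so tied with them. For cdc-48.2 they were ctns-1, again by the same peak, then nol-56, a nucleolar protein of snoRNA complexes (1.73 percentage points), and F52C9.5 (2.23). The 4 lists share reads, since the pooled and reproducible lists were made from both replicates.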

How the data were processed

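TF ChIP-seq peak lists of 2 biological replicates (1 group, per the labels) were used, 4 lists on ce11. Per the deposited notes, calling used a control, the lists of single and pooled replicates keep background because they were made for IDR, and the reproducible set comes from those 3 lists. Aligner, peak caller and IDR cutoff: not given in the sources used here. The deposited signal is the authors' value, read as height against the control, and served to rank and describe peaks within a list. The deposited −log10 q value does not fall steadily with signal and served only as an alternative ranking. The 4 ce10 lists were not used, since no coordinates were converted.

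Summits were placed in windows of 19973 protein-coding genes (Ensembl release 115, 6 chromosomes) with Python 3.11.15, pandas 2.3.3 and NumPy 2.4.6; the exact interval came from SciPy 1.17.1, coding alignments from Biopython 1.88 and plots from Matplotlib 3.10.9. Sequences are from the RefSeq WBcel235 genome, and no peak passed a chromosome end. Window assignment was tested on simulated data. Depth is unknown. Neither replicate list repeats the other: 0 intervals were identical. Members, lists, motifs and windows were chosen with earlier results of these data known, so no test was made. Named genes were the members, genes sharing their summits and pathway genes with a reproducible summit. The 3 genes closest in rank to a member with a peak in every list were also named. Genes added after values were seen were cdc-48.3, sel-1, marc-6, C06A1.6, the snoRNA genes and rpl-3. So were K01G5.10, the genes named as nearest starts, eif-3.L, hmg-1, rpl-24, tin-9, rbm-3 and swd-2. Alternatives changed the window, the assignment, the peak set, the ranking and the definition of a shared place.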

Additional observations from a re-analysis of the deposited data

How the results depend on the processing

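The rank of cdc-48.1 by signal was 2 under every alternative except the list of replicate 2 alone. By q value it is 1 of 1090 peaks that share the highest value, so its rank of 2 there comes from the tie-break by signal. Over the runs with a replicate left out its rank was 2 to 4. The count of 2 genes with a reproducible summit dropped to 1, cdc-48.1, with 500 bp upstream, with nearest starts only, with the strongest 1143 peaks, and with replicate 2 alone, limited to its 2285 strongest peaks (1 to 2 genes over the runs with a replicate left out). Those settings left out the cdc-48.2 peak or gave it to ctns-1, so cdc-48.2 had no rank there. Elsewhere its rank was 1362 with replicate 1 alone, 1093 by q value and otherwise 1412. The count of genes with replicate summits at the same place was 1 when each replicate was limited to its 2285 strongest peaks, and 3, with ufd-1, when any overlap was accepted. The share of all protein-coding genes in these settings is not given here, so these counts have no background to be read against. The share of all protein-coding genes with a reproducible summit moved with the window: it was 8.60% in the promoter window (1000 bp upstream to 250 bp downstream), 9.06% with 500 bp upstream, 18.6% with 5000 bp upstream, 13.9% with any overlap, 8.34% with nearest starts, 7.12% with the strongest 1143 peaks, and 12.6 to 13.0% with a replicate left out. Counted only over genes with at least 90% unique sequence, an alternative chosen after seeing the data, it was 14.3%. No paired analysis was possible because there is 1 group. Limits: read depth is unknown, 2 replicates allow no test of a single peak, and the repeated sequence at npl-4.1 and npl-4.2 leaves no way to tell missing binding from reads without a unique place.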

Other observations

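Peaks close to but outside the searched windows were found in the pooled and replicate lists only. Within 5000 bp upstream or 1000 bp past the end of a gene, no reproducible summit was found besides those described. The peak nearest to the npl-4.2 window was at -3051 bp in the pooled list (signal 26.9, rank 9507), with a replicate 2 summit at -3052 bp (19.4, rank 5158), in the 3' UTR of eif-3.L, a translation initiation factor gene. For npl-4.1 it was a replicate 1 summit 450 bp past the gene end (12.5, rank 15576). Upstream of ufd-1 the strongest pooled peak in this range was in an intron of F19B6.1 at -4639 bp (signal 45.4, rank 3296). Its signal was above the pooled median of 30.9. The replicates had summits at -4474 bp (replicate 1) and -4615 bp (replicate 2).

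The window of cdc-48.1 also held repeated sequence, away from its peak. Stretches between -859 and -1166 bp and between -1596 and -1903 bp occur elsewhere in the genome, and they lie inside C06A1.6 and C06A1.7.

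The contrast within the CDC-48 pair can be set beside other genes whose names carry a point and then the number 1 or 2, and no other number. Of 64 such pairs, 5 had a reproducible summit at both genes, 21 at 1 gene only and 38 at neither. The share of 13.0% of all protein-coding genes counts single genes and is no background for counts of pairs. No share for pairs of other genes is given here. Where both genes had one, as cdc-48.1 and cdc-48.2 do at ranks 2 and 1412, the ranks in the reproducible set were 237 and 736 for hmg-1, 334 and 215 for rpl-24, and 823 and 1913 for tin-9. In rbm-3 (rank 1142) and swd-2 (rank 1673) both genes of the pair had the same peak. The cdc-48 genes are not among the 64 pairs, since cdc-48.3 carries the same name. This count was made after the data were seen, and the share of repeated sequence in these pairs was not taken into account.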
